A study of Mus musculus with 2 samples.

Results

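Large domains of reduced DNA methylation were sought on the autosomes of the female mouse epiblast as 100 kb tiles of the genome with an unusually low methylation level. The level of a tile is its methylated read counts as a percent of all its read counts at CpGs, the sites where a cytosine precedes a guanine. CpGs in stretches of 1 kb that hold 20 or more CpGs were left out, to limit the part of CpG islands in the level. Stretches of 1 kb with fewer CpGs stayed in, including those with little methylation. A tile was measured when at least 100 of the remaining CpGs had a read and their counts came to at least 500. A tile was called low when its level was in the lowest 5% of measured tiles, which put the threshold at 66.1%. This gave 1191 low tiles of 23819 measured ones (5.0%, as the rule fixes), or 119.1 Mb of sequence, and the 22628 other measured tiles are the comparison. Of 24032 autosomal tiles with a CpG, the rest were not measured.

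Whole-genome bisulfite sequencing reads an unmethylated cytosine as thymine and a methylated one as cytosine. It was done on wild-type C57Bl6/J epiblasts of genotype XX at embryonic day 6.5, dissected from embryos of natural matings. The labels list 2 such samples. The counts carry no sample name and were taken as the pool of both. There is therefore no replicate error and no test between tiles, and every value is an average over cells, both alleles and whatever samples went into the counts. The 19 autosomes held 133245671 read counts over 20383623 CpGs, 89.9% of which were covered, at a median depth of 6 and a level of 66.3%. Ranges in parentheses after a value are 95% intervals by the exact Clopper-Pearson method. Only counting error is in them, reads across several CpGs count more than once, and neighboring tiles are not independent.

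The epiblast forms the fetus proper. Its genome is remethylated around implantation by the de novo methyltransferases after most methylation of the gametes is lost, and CpG islands mostly escape this. In placenta and many cultured cells, long gene-poor stretches known as partially methylated domains keep a lower level than the rest of the genome. Clusters of developmental regulators, such as the Hox clusters, lie in broad stretches with little methylation that Polycomb proteins bind in early embryos.

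The promoters of 4 genes named below are shown as examples of sequence in low tiles. They do not stand for the tiles at large, since genes covered a median of 21.2% of the bases of a low tile. Each is 300 bases from RefSeq (GRCm38.p6, the assembly of mm10), from 250 bases before to 50 after the gene's start, 5′ to 3′ on the gene's strand, with each CpG in capitals. Hoxb4, a regulator of position along the body axis, lies in the lowest tile with Hox genes for which a promoter was to hand (chr11:96318017-96318316, plus strand).
Hoxb4: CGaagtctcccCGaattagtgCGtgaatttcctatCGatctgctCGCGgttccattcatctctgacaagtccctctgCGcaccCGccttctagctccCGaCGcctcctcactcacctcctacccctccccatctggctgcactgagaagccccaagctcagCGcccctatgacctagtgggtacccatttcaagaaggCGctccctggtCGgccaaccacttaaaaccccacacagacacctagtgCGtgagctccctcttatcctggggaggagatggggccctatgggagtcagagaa
Tfap2b, a transcription factor of neural crest and kidney, lies in the lowest tile without Hox genes (chr1:19211804-19212103, plus strand).
Tfap2b: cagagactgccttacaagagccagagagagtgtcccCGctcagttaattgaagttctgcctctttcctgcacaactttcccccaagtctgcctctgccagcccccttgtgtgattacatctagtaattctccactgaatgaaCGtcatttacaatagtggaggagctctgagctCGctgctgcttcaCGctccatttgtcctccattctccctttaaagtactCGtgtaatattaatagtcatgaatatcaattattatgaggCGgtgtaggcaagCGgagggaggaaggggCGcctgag
H2bc6, a gene for histone H2B, lies in the lowest tile with histone genes (chr13:23585921-23586220, minus strand).
H2bc6: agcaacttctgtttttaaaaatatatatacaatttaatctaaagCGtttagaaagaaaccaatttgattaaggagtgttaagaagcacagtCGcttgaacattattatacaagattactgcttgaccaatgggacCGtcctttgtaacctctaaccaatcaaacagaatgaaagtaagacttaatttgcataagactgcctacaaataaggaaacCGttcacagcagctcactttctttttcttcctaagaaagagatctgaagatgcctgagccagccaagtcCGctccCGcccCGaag
Cdh8, a cadherin of neurons, starts in a run of low tiles described below (chr8:99416422-99416721, minus strand).
Cdh8: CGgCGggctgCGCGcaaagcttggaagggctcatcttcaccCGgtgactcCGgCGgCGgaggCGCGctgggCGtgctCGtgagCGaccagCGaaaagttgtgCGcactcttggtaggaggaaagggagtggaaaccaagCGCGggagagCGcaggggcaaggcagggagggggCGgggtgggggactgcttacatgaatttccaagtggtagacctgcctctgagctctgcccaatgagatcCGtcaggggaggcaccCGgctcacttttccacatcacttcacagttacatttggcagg
These promoters held 14, 8, 7 and 21 CpGs in the order shown, beside a median of 7 over 31396 RefSeq promoters of this length. CpG is its own reverse complement, so both strands give the same count. At least as many CpGs were found in 36.8% of all promoters for Hoxb4, 48.99% for Tfap2b, 52.5% for H2bc6 and 25.4% for Cdh8. Their levels were 21.5% for Hoxb4 (15.1% to 29.1%, 144 read counts), 16.4% for Tfap2b (8.79% to 27.0%, 73 counts), 8.51% for H2bc6 (2.37% to 20.4%, 47 counts) and 8.98% for Cdh8 (6.10% to 12.6%, 323 counts). All 4 promoters lay below the level of the tile around them. The 21 CpGs of the Cdh8 promoter lie in a single stretch of 1 kb, so the rule left them out of the level of their tile. Whether CpGs of the other promoters were left out was not counted. The median CpG number of promoters was alike, with 7 in 1315 promoters of low tiles and 7 in 29713 promoters of the other tiles. Promoters with at least 15 CpGs and a level numbered 327 in low tiles and 9156 in the other tiles. They were a smaller part of the promoters in low tiles.

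Low tiles were mostly moderate in depth of reduction. Since the rule chose them by level, the following is a description. Their levels had a median of 64.9% and a lowest value of 22.7%, and 5% of them were under 59.6%. The other tiles had a median of 74.4% and a 95th percentile of 82.6%. The distribution had no gap at the threshold. The 5 tiles just inside it, with levels of 66.13% to 66.14%, held Pou4f2, a regulator of retinal neurons, the pheromone gene Esp31, the receptor gene Vmn2r84 and Tespa1, and 2 of them held no protein-coding gene. The 5 tiles just outside, with levels of 66.14% to 66.15%, held Pde3b, a phosphodiesterase, Robo2, an axon guidance receptor, Grm5, a glutamate receptor, and no gene at all in 2 of them. The whole interval lay at or under the threshold in 366 low tiles, 1.54% of all measured tiles and 30.7% of the low ones. Of the other tiles, 2027 had an interval that reached to the threshold or under it.

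**Figure D1:**
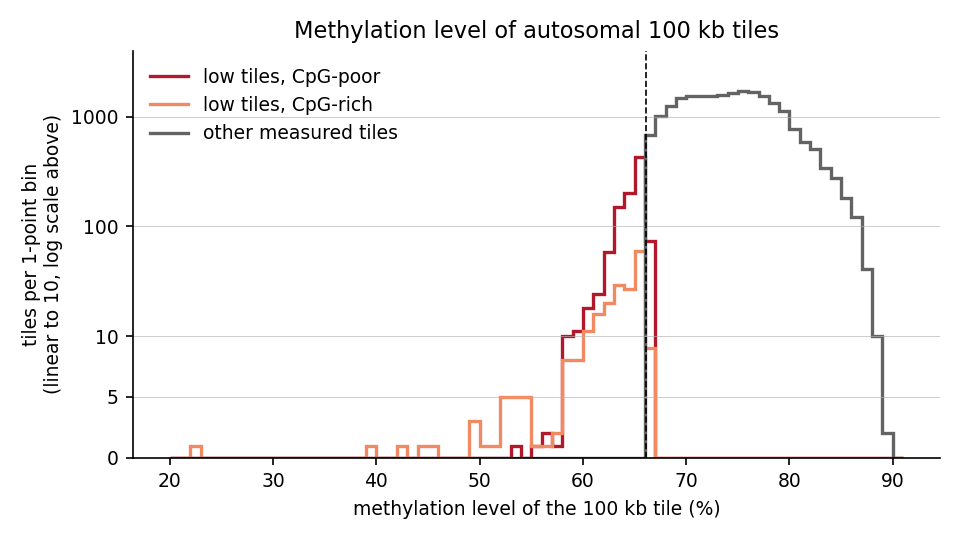
Number of autosomal 100 kb tiles (vertical axis, linear up to 10 and logarithmic above) by methylation level in bins of 1 point (horizontal axis, percent). Red and orange lines are low tiles with fewer than 779 CpGs and with 779 or more, the gray line is the other measured tiles, and the dashed line is the threshold of 66.1%. The low tiles are the lower end of 1 continuous distribution, and the levels under 50% belong to CpG-rich low tiles.

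The strands of DNA are covered by separate reads, which allows tiles chosen on the plus strand to be read on the minus strand and the reverse. The 1191 tiles lowest on plus-strand reads had a median of 66.0% on minus-strand reads, against 74.5% for the remaining tiles. The 1191 tiles lowest on minus-strand reads had a median of 65.8% on plus-strand reads, against 74.3% for the remaining tiles. Of each set, 570 tiles (47.9%) were among the lowest 5% on both strands. Of the tiles chosen on the plus strand, 1188 (99.7%) were below the median tile on the minus strand. A lower level was thus seen again in reads that had not chosen the tile, and the remaining tiles of each set were among the lowest on that strand alone.

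Low tiles had fewer CpGs and fewer reads than the other tiles, and more of them had no gene. For their number they did not hold fewer genes in total. They were 5.0% of measured tiles and held the midpoints of 5.23% of RefSeq genes. The number of CpGs was below that of the median tile, 779, in 81.8% of low tiles (79.5% to 83.9%) and in 48.3% of the other tiles (47.6% to 48.9%). The median low tile held 496 CpGs and the median other tile 798. No RefSeq gene touched 28.2% of low tiles (25.7% to 30.9%) and 14.4% of the other tiles (13.9% to 14.8%). No protein-coding gene touched 47.6% of low tiles (44.7% to 50.5%) and 34.4% of the other tiles (33.8% to 35.0%). Genes covered a median of 21.2% of the bases of a low tile and 52.4% of another tile. Reads per CpG were below those of the median tile, 5.55, in 83.6% of low tiles (81.4% to 85.7%) and in 48.2% of the other tiles (47.6% to 48.9%), and their medians were 3.88 and 5.65. Depth at least 2 times that of the median tile was seen in 2 low tiles and 18 other ones.

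CpG number, depth and gene content move together, so they were also set side by side among tiles of like CpG number. Low tiles made up 21.3% of the 1896 tiles with under 450 CpGs, 8.48% of tiles with 450 to under 600, 2.73% of tiles with 600 to under 800, 0.867% of tiles with 800 to under 1200 and 3.48% of tiles with 1200 or more. The share of low calls therefore fell with CpG number and was higher again in the most CpG-rich tiles. Within these classes the higher share of tiles without genes was not seen throughout. Among tiles with under 450 CpGs, 45.4% of low tiles and 42.5% of the other tiles had no gene. With 450 to under 600 CpGs the shares were 31.3% of low tiles and 31.9% of the other tiles, and with 600 to under 800 CpGs they were 10.5% of low tiles and 15.3% of the other tiles. With 800 to under 1200 CpGs a gene was missing from 0 of 65 low tiles, which allows a share of up to 4.62%, and from 4.12% of the other tiles. No protein-coding gene touched 55.6% of low tiles and 61.6% of the other tiles with 450 to under 600 CpGs, 25.9% and 41.3% with 600 to under 800, and 9.23% and 20.4% with 800 to under 1200. Low tiles thus lacked a protein-coding gene less frequently than other tiles of like CpG number, the reverse of the order over all tiles. The median reads per CpG remained lower in low tiles in the 4 classes under 1200 CpGs, for example 3.63 against 4.16 in other tiles with 450 to under 600 CpGs, and was 8.17 against 7.97 with 1200 or more. Across all 23819 tiles, the level had a Spearman correlation of 0.56 with CpG number, 0.54 with reads per CpG and 0.38 with the percent of bases in genes. These tiles share 1 pooled set of counts, and the part of depth and base composition in the level was not tested.

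When low was redefined as the lowest 5% within each of 20 classes of tiles with like CpG number, 1200 tiles (5.04%) were chosen, of which 680 were among the 1191. Of these 1200 tiles, 14.2% had no gene, against 15.1% of the remaining tiles, so the higher share of tiles without genes belongs to the single threshold for all tiles. This redefinition was added after the data were seen. Further choices weighed as much. With CpG-dense stretches kept in the level, 0.168% of low tiles had no gene, against 15.8% of the other tiles, and 19.6% of low tiles had fewer CpGs than the median tile, against 51.6% of the other tiles. With at least 300 covered CpGs and 2000 reads required, 927 tiles were low, 30.8% of the 1191 were among them, and 9.82% of them had no gene, against 7.98% of the other tiles.

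**Figure D2:**
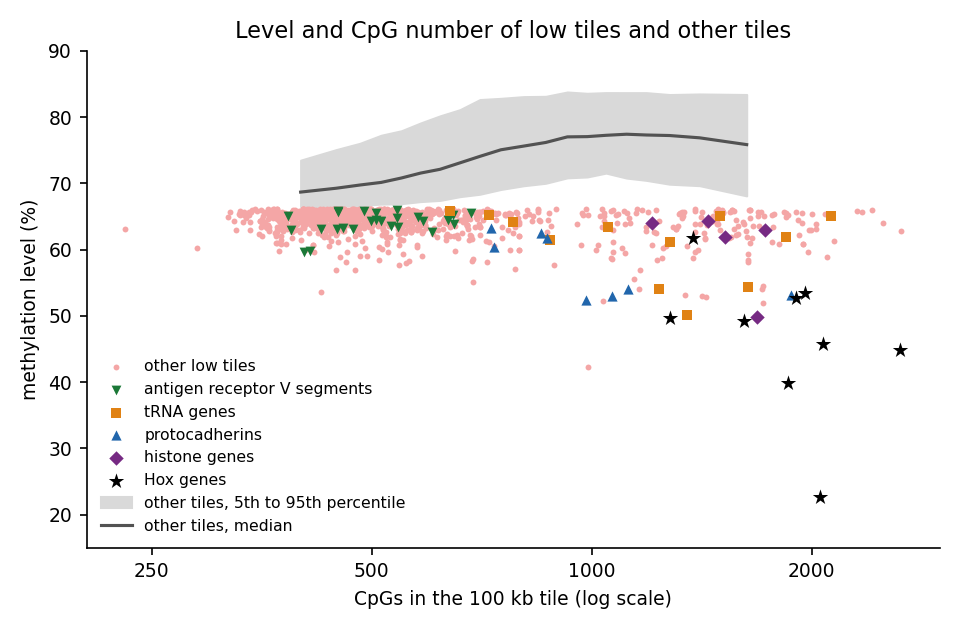
Methylation level (vertical axis, percent) against CpGs per 100 kb tile (horizontal axis, log scale). Each symbol is a low tile, marked by the gene group it holds, and the gray line and band are the median and the 5th to 95th percentile of the other tiles in 20 classes of CpG number. Most low tiles lie at the CpG-poor end just under the threshold, and the lowest lie at the CpG-rich end and hold Hox genes.

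The low tiles were of a CpG-poor and a CpG-rich kind, split here at 779 CpGs, a division made after the data were seen. The 974 CpG-poor low tiles had a median level of 65.0%, a lowest level of 53.7% and a median of 24 CpGs in the CpG-dense stretches that the rule left out. The 217 CpG-rich low tiles had a median level of 63.7% and a median of 613 CpGs in such stretches, against 224 in the other CpG-rich tiles. No gene touched 34.3% of CpG-poor low tiles and 0.922% of CpG-rich ones.

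In CpG-poor low tiles few 1 kb tiles had a very low level, which is a description of the reads that chose the tiles. Of their 1 kb tiles with at least 10 read counts, 2 covered CpGs and fewer than 20 CpGs, 0.491% were at or under 20% methylation. That share was higher than the 0.155% of the other CpG-poor tiles. The median 1 kb tile was at 65.5%, against 73.1% in the other CpG-poor tiles. Levels of at least 80% were found in 13.7% of these 1 kb tiles, against 29.4% in the other CpG-poor tiles. No 1 kb tile at or under 20% was present in 761 of the 974 (78.1%). In CpG-rich low tiles 4.12% of 1 kb tiles were at or under 20%, against 0.311% in the other CpG-rich tiles, and 38 of the 217 (17.5%) held none. The level was also taken over the 1 kb tiles within these limits that were above 20%. It was still at or under the threshold in 736 of the 974 CpG-poor low tiles (75.6%) and 123 of the 217 CpG-rich ones (56.7%). The limits on reads and CpGs also leave out reads, so the loss of calls is not that of the lowest 1 kb tiles alone.

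The level of low tiles also ran differently with local CpG number. In the other tiles it climbed with CpG number, with 69.9% in 1 kb tiles of 1 to 2 CpGs and 77.0% in those of 10 to 14. In low tiles it was 63.0% with 1 to 2 CpGs, 66.1% with 7 to 9, 64.0% with 10 to 14 and 57.9% with 15 to 19, where the other tiles had 76.0%. Among 1 kb tiles with fewer than 20 CpGs, the gap between low and other tiles was thus smallest where CpGs were sparsest. The reads of these 1 kb tiles chose the low tiles, and 1 kb tiles with more reads weighed more in the choice. The order of the gaps is therefore a description, and the part of the choice in it was not tested.

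CpG-dense 1 kb tiles took no part in choosing the low tiles and give a separate readout. Pooled over all of them, the level was 25.6% in low tiles (25.5% to 25.7%) and 40.8% in the other tiles (40.8% to 40.8%). The median tile with at least 20 counts there was at 69.5% among CpG-poor low tiles (568 tiles), against 75.4% among the other CpG-poor tiles (7389 tiles). Among CpG-rich tiles the medians were 18.9% in low tiles (216 tiles) and 46.5% in the other tiles (11532 tiles). The difference was largest at intermediate density. In 1 kb tiles of 20 to 29 CpGs the level was 50.7% in low tiles and 69.7% in the other tiles, and with 30 to 49 CpGs it was 24.9% and 36.0%. With 50 or more CpGs, the range of typical CpG islands, it was 9.03% in low tiles and 6.99% in the other tiles. CpG-dense promoters, taken as those with at least 15 CpGs in the 300 bases, had a median of 4.96% in low tiles (327 promoters, interquartile range 3.03% to 7.89%) and 4.68% in the other tiles (9156 promoters, 2.62% to 7.45%). The cores of CpG islands thus had a like low level in low tiles and in other tiles.

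**Figure D3:**
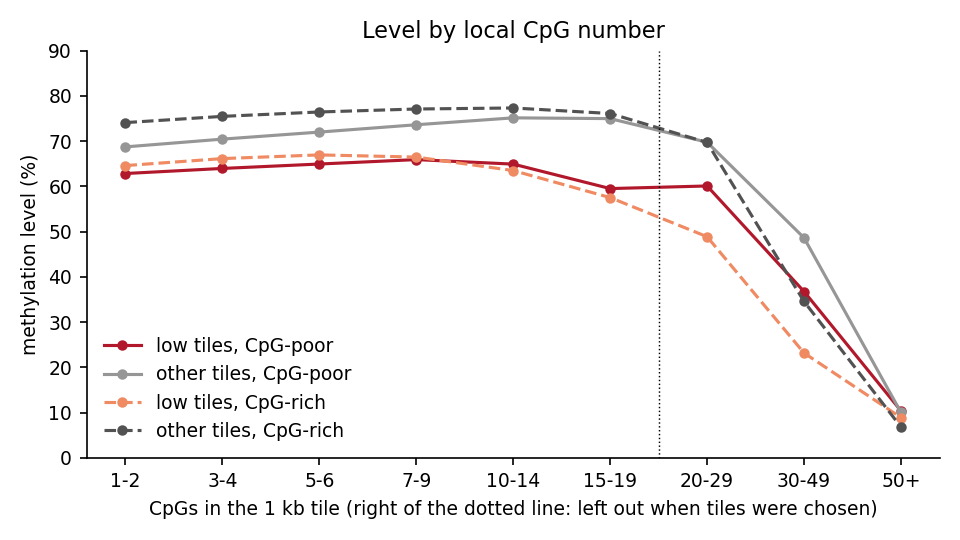
Methylation level (vertical axis, percent) by the number of CpGs in 1 kb tiles (horizontal axis), for CpG-poor (solid lines) and CpG-rich tiles (dashed lines), with low tiles in red and orange and other tiles in gray. Tiles right of the dotted line were left out when low tiles were chosen. The lines of low tiles run below those of the other tiles of the same kind up to 49 CpGs and come close to them at 50 or more.

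The CpGs that chose the low tiles were split by gene bodies. Since their pooled level set the choice, the levels within low tiles are a description and had to lie near or under the threshold. In low tiles, CpGs within protein-coding genes were at 63.5% (63.4% to 63.6%) and CpGs outside genes at 64.2% (64.2% to 64.3%). In the other tiles, protein-coding genes were at 78.1% (78.1% to 78.1%) and CpGs outside genes at 73.3% (73.3% to 73.3%). Gene bodies were thus above intergenic sequence in the other tiles and slightly below it in low tiles. The same order was seen in CpG-poor low tiles, with 64.2% in protein-coding genes and 64.7% outside genes.

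Low tiles lay next to each other more often than the share of low tiles. An adjacent low tile on either side was found for 508 of 1191 (42.7%, interval 39.8% to 45.5%). Of 1177 measured tiles that followed a low tile, 315 (26.8%) were low, beside 5.0% of all tiles. Among tiles with 600 to under 800 CpGs, 21.3% of those that followed a low tile were low, beside 2.73% of the class. Among tiles with under 450 CpGs the shares were 40.7% after a low tile and 21.3% of the class, so adjacency was seen within classes of CpG number as well. The low tiles formed 876 runs, of which 683 were single tiles, 122 had 2 tiles, 44 had 3, 14 had 4, 7 had 5, 4 had 6, 1 had 8 and 1 had 9. Runs of at least 300 kb numbered 71 and held 264 low tiles, and the name large domain thus covers the smaller part of them.

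The surroundings of the 2 kinds of run differed. Around runs with CpG-poor tiles, the median level was 68.5% in the tile 100 kb away and 70.2% in the tile 1000 kb away, below the median of 74.0% of all measured tiles. Around CpG-rich runs it was 73.5% at 100 kb and 74.3% at 1000 kb. The flanks also differed in CpG number, with medians of 494.5 to 556 around CpG-poor runs and 945 to 1080 around CpG-rich runs. Among the other tiles of the genome in classes of like CpG number, the median level was 69.7% at a median of 482 CpGs and 70.8% at 549, and 77.0% at 926 and 77.2% at 1046. Against tiles of like CpG number, the flanks of CpG-rich runs were therefore the lower ones by more points, and the order seen against all tiles did not hold.

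**Figure D4:**
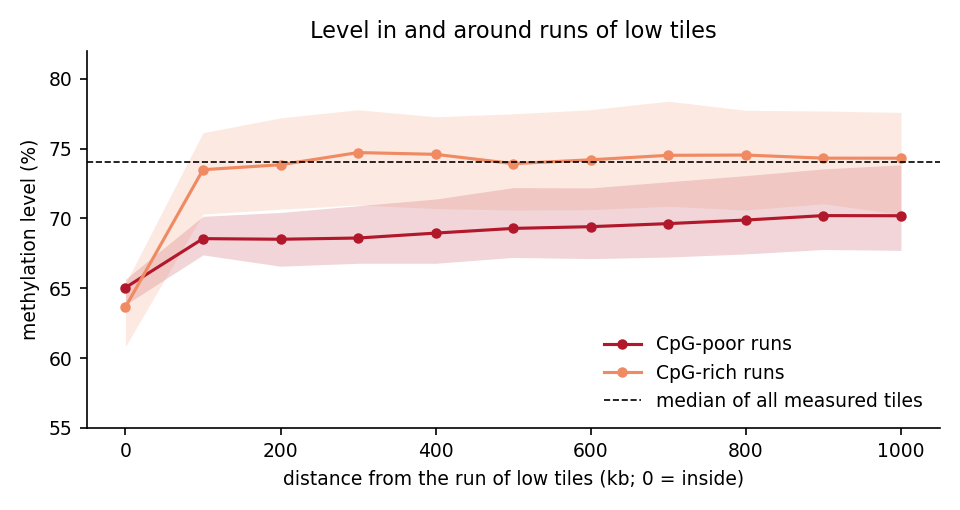
Median methylation level (vertical axis, percent) of 100 kb tiles inside runs of low tiles (0) and at 100 to 1000 kb on either side (horizontal axis, kb), with bands from the lower to the upper quartile. CpG-poor runs (red) remain below the median of all measured tiles (dashed line) out to 1000 kb, and CpG-rich runs (orange) are close to it from 100 kb.

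The longest run was the clustered protocadherin locus on chromosome 18 (chr18:36900001-37800000), whose genes encode adhesion proteins that tell neurons apart. Its 9 tiles lay between 52.4% and 63.2%, and the run was at 57.2% (56.6% to 57.8%, 24295 read counts), with 72.2% and 67.3% in the tiles on either side. It touched 59 protein-coding genes, of which Pcdha1, Pcdha2, Pcdha3, Pcdha4 and Pcdha5 have the most bases in it. Pooled over the run, its CpG-dense 1 kb tiles were at 31.7% (31.3% to 32.1%), above those of the Hox clusters given below. The tiles of the run differed in this value. It was 47.6% in a tile with Pcdhb genes (chr18:37300001-37400000). In the tile with Pcdhga1 (chr18:37700001-37800000) it was 17.1%, near the 16.0% of Hoxb.

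The second longest run, of 8 tiles, held Cdh8 as its only protein-coding gene (chr8:99400001-100200000). It was at 64.7% (63.8% to 65.5%, 12741 counts), with single tiles from 62.1% to 66.1% and flanks at 68.5% and 68.1%. Its CpG-dense 1 kb tiles were at 37.3%. Of the 4 runs of 6 tiles, 2 lay in the immunoglobulin heavy chain locus, which lymphocytes rearrange (chr12:114200001-114800000 and chr12:115000001-115600000). They held 52 and 31 V segments and were both at 64.0% (63.1% to 64.9% and 63.0% to 65.0%). Their few CpG-dense 1 kb tiles were at 63.4% and 74.2% when pooled over each run, above the 37.3% of the Cdh8 run. Single CpG-dense 1 kb tiles in these runs were not looked at. Another run held Neto1, which encodes a partner of glutamate receptors in neurons (chr18:86100001-86700000), and was at 64.1% (63.2% to 65.0%), with CpG-dense tiles at 34.0%. The last lay on chromosome 7 (chr7:60800001-61400000), was at 62.8% (61.7% to 63.9%) and touched 4 genes, none of them protein-coding with a symbol other than a Rik one.

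The 10 lowest tiles were all CpG-rich, and 6 of them held Hox genes, the regulators of position along the body axis. The lowest (chr15:102900001-103000000) was at 22.7% (21.3% to 24.1%, 3615 counts) and held Hoxc8, Hoxc9, Hoxc10, Hoxc11 and Hoxc13 among others. In this tile 54.7% of the 1 kb tiles were at or under 20%, the highest share in any measured tile, and its left neighbor was at 74.2%. The tile to its right (chr15:103000001-103100000), with Hoxc4, Hoxc5 and Hoxc6, was at 49.7% (48.2% to 51.1%). The Hoxb tile with Hoxb1 to Hoxb5 (chr11:96300001-96400000) was at 39.9% (38.4% to 41.5%). The Hoxa tiles were at 44.9% (chr6:52200001-52300000, 43.2% to 46.5%) with Hoxa3, Hoxa6, Hoxa9, Hoxa10 and Hoxa11, and at 49.3% (chr6:52100001-52200000, 47.8% to 50.7%) with Hoxa2, Hoxa3 and Hoxa4. The Hoxd tile with Hoxd10 to Hoxd13 and the neighboring homeobox gene Evx2 (chr2:74600001-74700000) was at 45.8% (44.1% to 47.4%).

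Every tile that holds the midpoint of a Hox gene was low, and the 4 clusters differed in degree. Pooled over the tiles that hold their genes, the level was 37.6% in Hoxc (36.6% to 38.7%), 47.4% in Hoxa (46.3% to 48.5%), 49.4% in Hoxd (48.3% to 50.6%) and 53.7% in Hoxb (52.9% to 54.5%). Their CpG-dense 1 kb tiles, which the rule did not use, were at 11.3% in Hoxc, 11.7% in Hoxa, 9.43% in Hoxd and 16.0% in Hoxb. The intervals of Hoxc and Hoxb did not overlap with those of any other cluster outside CpG-dense stretches, and those of Hoxa and Hoxd overlapped. These intervals hold counting error only and do not measure a difference between clusters. The Hoxb value was pooled over 3 tiles and the others over 2 each. Its tiles with Hoxb1 to Hoxb9 were at 39.9% and 53.5%, both under the pooled value. The place of Hoxb among the clusters thus depends on its remaining tile, at 61.8%. Within a cluster the tiles also differed, and those of Hoxc spanned 22.7% to 49.7% and those of Hoxb 39.9% to 61.8%.

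The remaining 4 of the 10 lowest tiles held other kinds of gene. The tile of Tfap2b (chr1:19200001-19300000) was at 42.3% (40.5% to 44.0%), with CpG-dense tiles at 14.9% and Tfap2b as its only gene. On chromosome 13, a tile with the histone genes H2bc6, H3c6, H3c7, H1f3 and H2ac8 (chr13:23500001-23600000) was at 49.8% (48.1% to 51.5%), with CpG-dense tiles at 6.76%. Its left neighbor (chr13:23400001-23500000) was at 50.2% (48.8% to 51.6%) and held 22 tRNA genes with Btn1a1 and Btn2a2, of the butyrophilin family, and Abt1, an activator of basal transcription. The tile of Rhcg, an ammonium transporter, and the microRNA gene Mir9-3 (chr7:79500001-79600000) was at 52.0% (50.7% to 53.2%), between neighbors at 78.2% and 77.1%. Over the 1 kb tiles that had at least 10 read counts and 2 covered CpGs and were above 20%, the 10 tiles were at 41.5% to 63.2%.

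Gene families were counted by the tile that holds each gene's midpoint, on 31 lists by RefSeq symbol. Members of a family share tiles, and the number of tiles is the better measure of how often a family was met. Of protein-coding genes 4.66% lay in low tiles, and of all RefSeq genes 5.23%. Under the threshold within classes of CpG number, 6.21% of protein-coding genes and 7.11% of all genes did. All 39 Hox genes lay in low tiles, in 9 tiles, led by Hoxc12 and Hoxc13. So did 54 of 67 protocadherin genes in 8 tiles, led by Pcdha1 and Pcdha2 in a tile at 52.4%. Histone genes followed with 46 of 72 in 5 tiles, led by H4c8 and H2ac10. All 3 families are clustered, and their shares were 100%, 88.1% and 76.4% under the threshold within classes of CpG number.

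Most other families of developmental regulators had a larger share in low tiles than the 4.66% of protein-coding genes. Of 64 other homeobox genes on the list 20 lay in low tiles (31.3%), in 16 tiles, and 42.2% did so within classes of CpG number. Dlx5 and Dlx6, regulators of limb and jaw, lay in their lowest tile at 53.1%. T-box genes had 4 of 12, led by the heart regulator Tbx5 at 63.9% and Tbx18 at 64.3%. Of 19 Wnt ligand genes 4 lay in low tiles, among them Wnt6 and Wnt10a in a tile at 63.0%. Forkhead genes had 5 of 41, among them the endoderm regulator Foxa2 in a tile at 60.2%, and 29.3% within classes of CpG number. Of 20 Fgf genes, ligands of growth factor receptors, 2 lay in low tiles, and 40.0% within classes of CpG number. No Sox gene of 18 lay in a low tile, and 16.7% did within classes.

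Several receptor and immune families also had members in low tiles. Vomeronasal receptors, which detect pheromones, had 34 of 109 type 2 genes (31.2%) and 36 of 182 type 1 genes (19.8%) in low tiles. Vmn2r30 and Vmn2r31 lay in a tile at 59.3%, and Vmn1r234 and Vmn1r235 in a tile at 61.4%. Within classes of CpG number the shares were 19.3% for type 2 and 17.6% for type 1. Olfactory receptors had 95 of 1103 (8.61%), in 25 of their 338 tiles, with Olfr827 at 59.9% and Olfr1359 at 61.9%. Their share within classes, 5.44%, was under that of protein-coding genes at large. Antigen receptor segments had 172 of 620 (27.7%), led by Ighv1-58 and Ighv1-59 at 59.6%, and 28.1% within classes. The major histocompatibility genes, whose products present peptides, had 16 of 35, led by H2-T3 and the pseudogene H2-T-ps at 60.2%. Glutamate and GABA receptor genes had 6 of 43, among them Gabra4 in a tile at 64.3%, and 6.98% within classes.

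The remaining families had few members in low tiles, but the shares of some were above the 4.66% of protein-coding genes. Zinc finger genes had 11 of 381 (2.89%), among them Zfp184 at 54.0% in a tile that also held tRNA genes, and Zfp983 at 58.5%. Solute carriers had 7 of 362, led by Slc25a2, which lies in the protocadherin run, and Slc5a5, the iodide transporter, at 61.3%. The potassium channel gene Kcnn1 lay in the same tile as Slc5a5. Potassium channels had 7 of 92 in all (7.61%), and ribosomal protein genes 4 of 91 (4.40%), among them Rps9 in a tile at 63.6%. Cytochrome P450 genes had 4 of 99, among them Cyp27a1, an enzyme of bile acid synthesis in the tile of Wnt6, and Cyp2b19. Serpins had 4 of 62 (6.45%), with Serpinb3a and Serpinb3d in a tile at 63.9%. The prolactin list had 4 of 29 (13.8%), led by Prl2c5 and by Prlhr, a receptor gene that its symbol placed on the list. Cadherins, cathepsins and proteasome genes had 2 members each in low tiles. No defensin of 65, keratin or keratin-associated gene of 109, pregnancy-specific glycoprotein gene of 13 or Prame family gene of 27 lay in a low tile. Within classes of CpG number, 12 genes of the keratin list and 3 defensins did, and no pregnancy-specific glycoprotein or Prame family gene. Predicted genes had 879 of 19722, led by Gm36878 and Gm29905 beside the Hoxc genes, and microRNA genes 49 of 1090, led by Mir196a-2 and Mir10a of the Hox clusters.

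**Figure D5:**
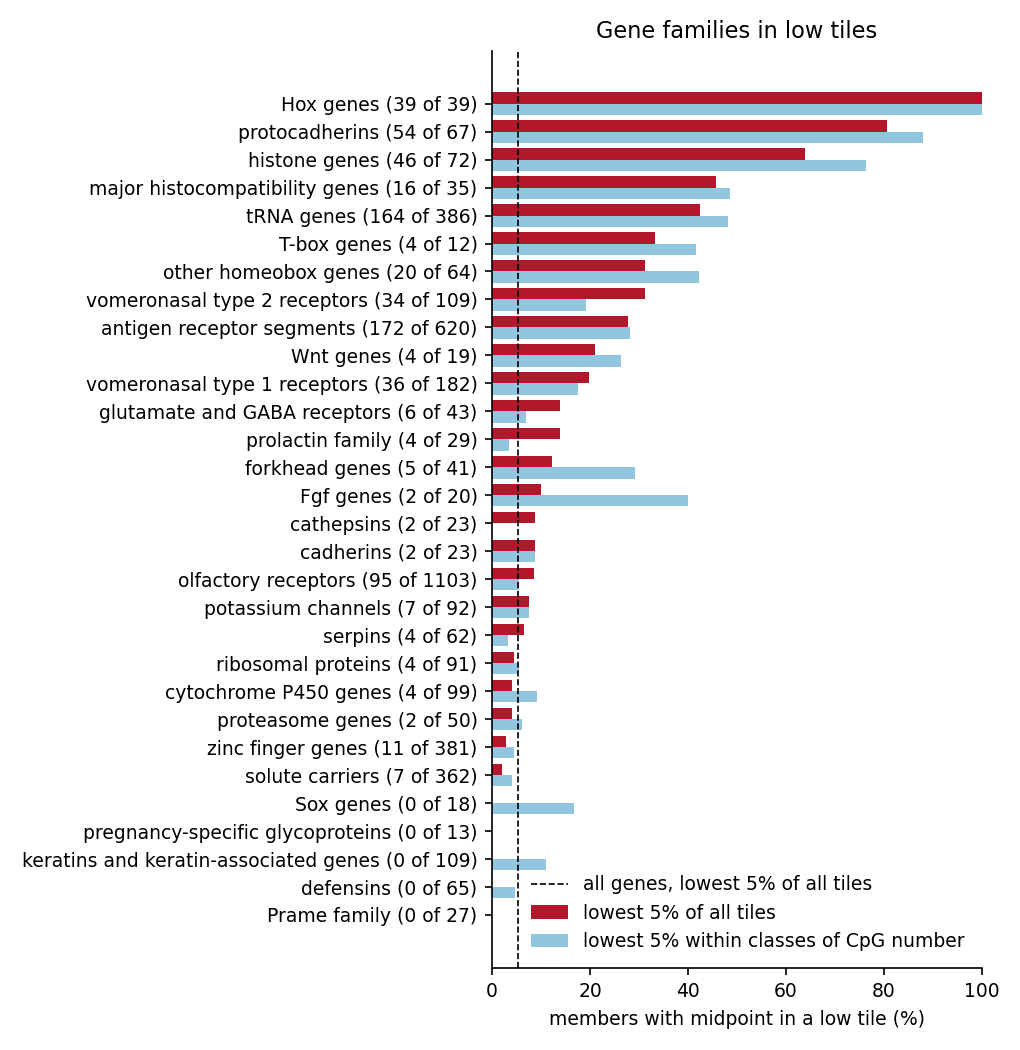
Percent of each gene family's members with their midpoint in a low tile (horizontal axis), with the number in low tiles of all members in brackets. Red bars use the threshold over all tiles, blue bars the lowest 5% within classes of CpG number, and the dashed line is the 5.23% of all genes in low tiles. Hox genes, protocadherins and histone genes have the longest bars, and olfactory receptors lie near the line.

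Transfer RNA genes, chosen for a closer count after their values were seen, had 164 of 386 (42.5%) in 16 low tiles, and 96 of them lay on chromosome 13. Besides the tile at 50.2% with 22 of them, a tile with 19 (chr13:21900001-22000000) was at 54.0%. A tile on chromosome 1 with 20 of them (chr1:171000001-171100000) was at 66.5%, just over the threshold. Of V segments and their pseudogenes, 173 of 503 (34.4%) lay in 26 low tiles.

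Low tiles were found on every autosome. Their share of measured tiles was lowest on chromosome 9 at 2.47% and highest on chromosome 7 at 7.36%. The tiles of the X chromosome, which the rule left out, had a median of 69.2%, and 265 of 1531 (17.3%) were at or under the autosomal threshold, against 5.0% of autosomal tiles. The X tiles also held fewer CpGs, with a median of 546 against 779 in autosomal tiles, and had 4.28 against 5.55 reads per CpG. The part of these differences, and of X inactivation, in the level was not tested.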

How the data were processed

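The values are counts of methylated and unmethylated reads for each strand of each CpG, as deposited by the authors in 1 table without sample names, taken as the pool of 2 samples. Per the submitters' processing notes, the build was mm10 and the tools were cutadapt 1.3, Bismark 0.12.5 and Bowtie2 2.1.0. The sources used here do not give how the samples were combined or whether duplicate reads were removed, and duplicates would narrow the intervals without adding information.

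Counts of both strands were added, with no normalization. Tiles were chosen, annotated and counted with Python 3.11.15, numpy 2.4.6, pandas 2.3.3 and scipy 1.17.1, and the steps were tested on simulated data. Genes and promoters came from RefSeq (GRCm38.p6). All 395568 CpGs of the promoter sequences were found at their positions in the table. CpG-dense tiles needed 20 counts to have a level, and single strands 250 counts. Alternatives concerned the level, the strands, depth, the size, borders and threshold of tiles, and CpG number. Named were the 10 lowest tiles, the 5 longest runs (6, with ties), the 5 tiles on either side of the threshold, up to 5 named protein-coding genes in each, and the 2 members in the lowest tiles of each family with 3 or more members in low tiles. Some genes that this rule names are not reported here. The tiles and lists were chosen with earlier results of these data known.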

Additional observations from a re-analysis of the deposited data

How the results depend on the processing

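No paired analysis was possible because the table has no column per sample, and leaving out a sample could not be done for the same reason. Of 14 alternatives, 13 were planned. CpG-dense 1 kb tiles were lower in low tiles under each of them, which the choice itself fixes where no CpG was left out. The share of low tiles with a low neighbor was above the share of low tiles under each. A neighbor on either side counted, so tiles placed without regard to each other would also exceed that share. The share of tiles following a low tile was not counted for the alternatives. With no CpG left out, the set was largely another, sharing 19.8% of its tiles with the reported one. Its tiles had no gene in 0.168% (15.8% of other tiles), CpG numbers below the median tile in 19.6% (51.6%), reads per CpG below it in 14.3% (51.9%), an adjacent low tile in 23.5% and a CpG-dense difference of -25.9 points. With at least 300 covered CpGs and 2000 reads, 927 tiles were low, 39.6% of them in the reported set, and the shares were 9.82% (7.98% of other tiles), 64.2%, 66.1% and 34.3%, with -15.4 points. Within classes of CpG number the shares were 14.2% (15.1%), 49.92% (49.95%), 59.8% (49.5%) and 30.2%, with -16.6 points.

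In the same order, the mean of CpG fractions gave 31.9%, 86.5%, 88.6% and 46.2%, with -16.3 points. Leaving out 1 kb tiles with 10 or more CpGs gave 34.1%, 91.3%, 92.1% and 52.1%, with -11.1 points. Tiles of 200 kb (599 low) gave 19.03%, 89.98%, 90.7% and 50.8%, with -11.4 points. The lowest 2% (477 low) gave 21.4%, 72.1%, 77.4% and 28.5%, with -20.0 points, and the lowest 10% (2382 low) gave 29.97%, 85.9%, 86.4% and 59.99%, with -14.2 points. Low neighbors were found for 39.1% on the plus strand, 38.2% on the minus strand and 38.3% with CpGs of 5 or more reads, with -14.6, -17.0 and -14.9 points. The minus strand gave 30.9% without a gene, and borders shifted by 50 kb gave 25.2%, with -16.1 points. The difference was -15.6 points without the deepest CpGs and -16.0 points with a threshold for each autosome. The reported values are 28.2%, 81.8%, 83.6%, 42.7% and -15.2 points. The cause of these changes was not tested. Depth limits the calls most in CpG-poor tiles, where a median of 1587 counts leaves intervals wider than the distance of most low tiles from the threshold.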
